A study of Mus musculus with 6 samples.

Results

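Annexins and the S100 proteins that bind them were followed as a group of 10 genes, 7 annexins (*Anxa1* to *Anxa7*) and 3 S100 genes (*S100a6*, *S100a10* and *S100a11*), of 53858 genes in the count table. The members were picked out by name, and they were chosen on measured values in so far as the difference between the groups of libraries described here was already known for some of them. Levels and differences of the members between the groups are therefore a description, and they support nothing beyond themselves. Poly(A) RNA was sequenced from 6 pools of spinal motor neurons of wild-type mice, collected 6 days after sciatic nerve crush. All of the neurons had taken up the green dye DiO, put at the proximal nerve on day 0. The 3 DiO-only pools held neurons without DiI, and the 3 double-labelled pools held neurons that also carried the red dye DiI, put at a distal site on day 2 to mark axons that had arrived there. A pool held 10 to 15 single cells picked under fluorescence (up to 20 by the lysis step of the protocol), and its RNA was amplified over 20 PCR cycles. No uninjured neurons were sampled, the labels used here give no age or sex, and they do not say that pools came from separate animals. The errors below therefore measure the spread between pools, which may be technical.

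Annexins are cytosolic proteins that attach to acidic phospholipids when calcium rises, and they act in membrane repair, vesicle traffic and the anchoring of actin to membranes. S100 proteins are small calcium-binding dimers that join annexins in pairs: S100A10 with annexin A2 in a stable tetramer, S100A11 with annexins A1 and A2, and S100A6 with several annexins. In peripheral neurons *Anxa2* and *S100a10* are known to respond to axon injury, and the S100A10 protein also carries ion channels and receptors to the cell surface.

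Of the 10 members, 7 had enough reads to be tested, and for all 7 the double-labelled pools had the lower mean level. *Anxa2* had the only groups that did not overlap. Its level is given in CPM, the usual counts-per-million unit, here with TMM scaling between libraries. It was 2001 ± 341 (SD, n = 3) without DiI and 840 ± 113 in double-labelled pools. *S100a10* and *S100a11* were lower on average but varied more between pools of a group than between groups. *Anxa6*, *Anxa7* and *Anxa4* had means within 1.16-fold of each other in the 2 groups, and *Anxa5* was 1.61-fold lower. *Anxa1*, *Anxa3* and *S100a6* were at or near the limit of detection.

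Total counts of the libraries ran from 2997714 to 6563403, so that 3 counts, the limit that a count of 0 allows, corresponded to 0.402 to 1.10 CPM. This limit covers counting error only. Genes with at least 1 count numbered 17229 to 22118 in DiO-only and 15657 to 16467 in double-labelled pools. Motor neuron markers were present in all libraries, with a summed level of 3949 to 5663 CPM against 3628 to 5533 CPM. Markers of other cells also differed. All 11 tested oligodendrocyte markers of 11 listed were higher in double-labelled pools, with a summed level of 287 to 587 CPM against 1460 to 4942 CPM. For 10 astrocyte markers, 8 of 9 tested were higher (45.1 to 138 CPM against 139 to 465 CPM). For 10 endothelial markers the sum was lower (10.2 to 56.2 CPM against 4.73 to 6.59 CPM), with 2 of 3 tested genes lower. No endothelial, oligodendrocyte or astrocyte marker was at 0 in all libraries. Microglia and macrophage markers overlapped (43.1 to 61.5 CPM against 21.6 to 48.9 CPM), with 3 of 3 tested genes lower. Pericyte and fibroblast markers (98.9 to 203 CPM against 18.2 to 328 CPM, *Kcnj8* at 0) overlapped too, with 1 of 2 tested genes lower. So did Schwann cell markers (700 to 822 CPM against 485 to 701 CPM), mostly from *Pmp22*, with 2 of 4 tested genes lower. For 6 interneuron markers the sums overlapped (9.35 to 115 CPM against 2.56 to 23.6 CPM), and the 1 tested gene was lower. Glia and vessel cells also express annexins, and the part of these markers in the members' differences was not tested. In pools of cells, fewer cells of a type and less RNA per cell cannot be told apart.

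*Anxa2* (ENSMUSG00000032231; mm10 chromosome 9, 69453620 to 69491795, plus strand) encodes the annexin that pairs with S100A10 and links actin to the plasma membrane. Its level was 1993, 1664 and 2346 CPM in DiO-only pools 1, 2 and 3 and 960, 737 and 823 CPM in double-labelled pools 1, 2 and 3. Every double-labelled pool was below every DiO-only pool, and the members of each group lay close together, with a coefficient of variation of 17.1% and 13.4%. The log2 fold change of double-labelled against DiO-only pools was -1.25 ± 0.31 (SE), which is 2.38-fold lower. Over all 12954 genes tested, 916 (7.07%) were lower in double-labelled pools without overlap, and 6303 (48.7%) had a log2 fold change below 0, so 1 and 7 of the 7 tested members stand beside these shares. Because the members were picked with this contrast known, nothing is read from them.

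No gene passed edgeR's quasi-likelihood test at an adjusted p of 0.05 (0 genes, 0.00% of 12954), and the members had edgeR adjusted p from 0.476 for *Anxa2* to 0.993 for *Anxa4* and *Anxa7*. At an unadjusted p under 0.05 there was 1 member, *Anxa2*, where 753 genes (5.81%) lay in all. DESeq2 called *Anxa2* on the same filtered genes (log2 fold change -1.24 ± 0.29 SE, DESeq2 adjusted p = 0.00977). There it called 76 genes, or 0.588% of the 12918 that were given an adjusted p. It also called *Anxa2* on all genes, meaning those with at least 1 count (-1.23 ± 0.32 SE, DESeq2 adjusted p = 0.0358). In that fit it called 75 genes, or 0.495% of the 15139 that were given an adjusted p. It called no other member. Over 15 other settings the adjusted p of *Anxa2* ran from 0.00977 to 1. The median log2 fold change was -0.68 over the 7 members and 0.02 over all tested genes.

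**Figure D1:**
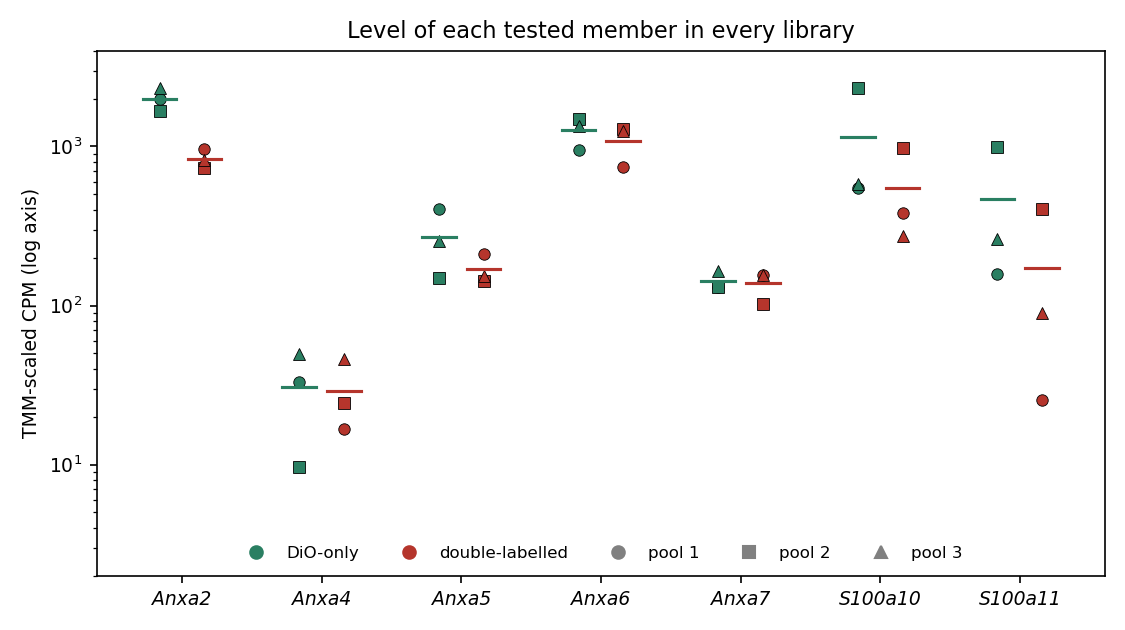
Level of the 7 tested members in every library, in TMM-scaled CPM on a log axis. Green symbols are DiO-only and red symbols double-labelled pools, circles, squares and triangles are pools 1, 2 and 3, and a line marks the mean of a group. The *Anxa2* groups are apart, and for *S100a10* and *S100a11* the squares of pool 2 are the highest in both groups.

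*S100a10* (ENSMUSG00000041959; chromosome 3, 93555080 to 93564643, plus strand) encodes the S100 protein that lacks a working calcium site and holds annexin A2 in its tetramer. It stood at 551, 2326 and 580 CPM in DiO-only pools 1, 2 and 3 and at 381, 983 and 275 CPM in double-labelled pools 1, 2 and 3. The groups overlapped because double-labelled pool 2 exceeded DiO-only pools 1 and 3. The log2 fold change was -1.08 ± 0.61 (SE). It was -0.04 without DiO-only pool 2 and -1.85 without double-labelled pool 2, and it was -0.80 ± 0.32 (SE) when pool 2 was left out of both groups, where the double-labelled pools were below the DiO-only pools. With these 4 libraries 35.5% of all tested genes had groups that did not overlap, in either direction. With limma voom and sample quality weights it was -0.34 ± 0.55 (SE).

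*S100a11* (ENSMUSG00000027907; chromosome 3, 93520488 to 93526287, plus strand), whose product binds annexins A1 and A2, varied most among the tested members. It stood at 157, 990 and 261 CPM in DiO-only pools and at 25.3, 404 and 89.4 CPM in double-labelled pools. Pool 2 was again the highest of each group, by 3.79-fold over the next DiO-only pool and 4.52-fold over the next double-labelled pool. The log2 fold change of -1.44 ± 1.03 (SE) became -0.26 without DiO-only pool 2, -3.07 without double-labelled pool 2, -0.94 without double-labelled pool 1 and -1.88 ± 0.65 (SE) without pool 2 of both groups. With limma voom and sample quality weights it was -0.80 ± 0.76 (SE).

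Upstream sequence of *Anxa2* and *S100a11* is shown because, of the members searched, they alone held the letters of an AP-1 site. RefSeq windows of 250 bases before to 50 after a start site on GRCm38.p6 were found for 7 of the 10 members, in 9 windows, and *Anxa3*, *Anxa6* and *S100a10* were not searched. The letters TGANTCA, the core of the site bound by AP-1 factors such as JUN, were found on either strand in 2 of the 9 windows, against 7.81% of 32851 windows of all genes and 4.99% of 12360 windows of tested genes. *S100a11* holds the letters at 2 places. The stretches before the annotated gene start are given 5′ to 3′ on the plus strand, with these letters in capitals.

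*Anxa2* chr9:69453433-69453619: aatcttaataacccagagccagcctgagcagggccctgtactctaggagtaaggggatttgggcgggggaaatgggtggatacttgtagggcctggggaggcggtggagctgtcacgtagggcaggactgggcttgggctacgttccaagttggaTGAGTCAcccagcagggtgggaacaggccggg
*S100a11* chr3:93520246-93520487: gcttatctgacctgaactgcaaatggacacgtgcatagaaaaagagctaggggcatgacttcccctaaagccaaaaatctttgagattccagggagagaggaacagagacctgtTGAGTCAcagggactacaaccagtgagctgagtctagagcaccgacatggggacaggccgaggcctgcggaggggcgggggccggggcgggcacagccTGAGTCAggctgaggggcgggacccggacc

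The matches begin at position -95 from the RefSeq start of *Anxa2* and at -136 and -38 from that of *S100a11*. The windows of *Anxa1*, *Anxa4*, *Anxa5*, *Anxa7* and *S100a6* did not hold these letters. GC boxes (GGGCGG) were found in windows of *Anxa2*, *Anxa4*, *Anxa7* and *S100a11*, where 35.7% of all windows hold them and 61.8% of those of tested genes. The TATA box letters TATAAA were found for *Anxa1* and *Anxa2* (13.6% of all windows, 6.88% of those of tested genes). These matches begin at -32 and -17 from the RefSeq starts, which in both genes is past the annotated gene start. Neither the cyclic AMP response element TGACGTCA (1.79% of all windows, 3.12% of those of tested genes) nor the STAT motif TTCNNNGAA (8.30% and 6.43%) was found in a member's window. A match describes these letters and is not evidence of a bound site.

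*S100a10* and *S100a11* are neighbours on chromosome 3 and the most abundant S100 genes there. *S100a6* (ENSMUSG00000001025; 90612882 to 90624181, plus strand), a partner of several annexins, lies apart from them in a cluster of S100 genes between 90511034 and 90695721. It had 12 counts over all libraries, namely 0, 3 and 0 in DiO-only pools and 5, 4 and 0 in double-labelled pools. Its highest level was 1.46 CPM, its counts in double-labelled pools 1 and 2 were just above the limit of 3 counts and the others at or below it, and no fold change is given.

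Among the remaining annexins, *Anxa5* (ENSMUSG00000027712; chromosome 3, 36448923 to 36475894, minus strand), whose product binds phosphatidylserine on cell membranes, stood at 406, 149 and 256 CPM in DiO-only pools and at 210, 142 and 154 CPM in double-labelled pools. The groups overlapped through DiO-only pool 2. The log2 fold change was -0.68 ± 0.38 (SE), -0.97 without DiO-only pool 2 and -0.28 without DiO-only pool 1. In contrast to the S100 genes, *Anxa5* was lowest in pool 2 of each group.

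*Anxa6* (ENSMUSG00000018340; chromosome 11, 54979108 to 55033445, minus strand) encodes the annexin with a duplicated core and was the other abundant annexin. It stood at 945, 1497 and 1341 CPM in DiO-only pools and at 740, 1285 and 1244 CPM in double-labelled pools, with a log2 fold change of -0.21 ± 0.34 (SE). Pool 1 was the lowest of each group, and the ranges overlapped. *Anxa7* (ENSMUSG00000021814; chromosome 14, 20455260 to 20480133, minus strand), of an annexin also named synexin that aggregates secretory granules, had the smallest difference, with 131, 130 and 165 CPM against 155, 102 and 156 CPM and a log2 fold change of -0.05 ± 0.31 (SE). *Anxa4* (ENSMUSG00000029994; chromosome 6, 86736840 to 86793584, minus strand) stood lower and varied widely, with 33.0, 9.69 and 49.7 CPM against 16.8, 24.2 and 46.1 CPM (log2 fold change -0.09 ± 0.59, SE). The direction for *Anxa4* and *Anxa7* turned upward when DiO-only pool 3 or double-labelled pool 2 was left out, and for *Anxa4* without double-labelled pool 1 as well. *Anxa4* overlaps a long noncoding RNA gene on the opposite strand that had 162 counts beside its 1036, and whether reads were counted by strand is not stated in the labels.

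The last annexins had very few counts. *Anxa1* (ENSMUSG00000024659; chromosome 19, 20373428 to 20390944, minus strand), a ligand of formyl peptide receptors that is known from leukocytes and vessels, had 6 counts in DiO-only pool 1 and 0 in the other libraries. *Anxa3* (ENSMUSG00000029484; chromosome 5, 96793339 to 96845966, plus strand), which microglia express, had 2 counts in DiO-only pool 1 and 0 elsewhere. *Anxa1* overlaps a long noncoding RNA gene on the opposite strand that had 7 counts. *Anxa3* overlaps a gene on the same strand that had 0 counts. The labels do not state how such reads were counted, so these low counts are not read as absence of the RNA. The neutrophil genes *S100a8* and *S100a9*, which belong to the S100 family too, had 0 counts in every library.

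**Figure D2:**
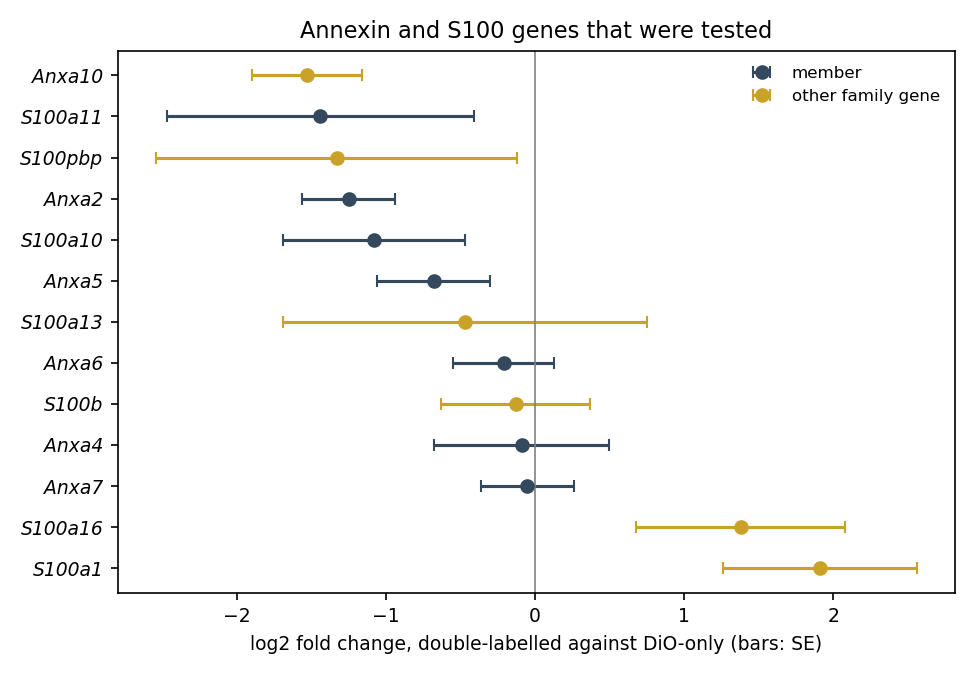
Log2 fold change of double-labelled against DiO-only pools with its SE for the 7 tested members in dark blue and, in yellow, 5 other tested annexin and S100 genes and *S100pbp*, which encodes a protein that binds an S100 protein. The 7 members lie between -1.44 and -0.05, and *S100a1* and *S100a16* lie above 0.

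Levels of different genes were compared per kilobase of exon. In DiO-only pools the order was *S100a10* (951 ± 839 CPM per kilobase; SD, n = 3), *S100a11* (918 ± 888), *Anxa2* (536 ± 91.5), *Anxa6* (430 ± 97.1), *Anxa5* (152 ± 72.7), *Anxa7* (23.7 ± 3.28) and *Anxa4* (6.63 ± 4.32). The neighbours in this order from *S100a10* to *Anxa6* did not differ beyond their spread, while *Anxa5* was below *Anxa6* and *Anxa7* below *Anxa5* in every library. In double-labelled pools the mean of *Anxa6* (372 ± 104 CPM per kilobase) was above that of *Anxa2* (225 ± 30.2), but this order did not hold in every pool. *S100a10* stood at 451 ± 315, *S100a11* at 339 ± 397 and *Anxa5* at 94.8 ± 20.3. With the longest annotated transcript as the length, *Anxa2* came to 878 and 368 CPM per kilobase in the 2 groups. *Anxa6* came to 507 and 438 and *S100a10* to 1682 and 798, and *Anxa7* and *Anxa4* stayed the lowest. *S100a11* kept 918 and 339, so that its mean in double-labelled pools was then below that of *Anxa2*.

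Ratios of counts within a library do not depend on scaling. The counts of *Anxa6* were 0.474, 0.900 and 0.572 times those of *Anxa2* in DiO-only pools 1, 2 and 3, and 0.770, 1.74 and 1.51 times in double-labelled pools 1, 2 and 3. *Anxa2* thus had more reads than *Anxa6* in 4 libraries, double-labelled pool 1 among them. The counts of *Anxa5* were between 0.0893 and 0.218 times those of *Anxa2* in all libraries. The tetramer partners did not keep 1 ratio. The counts of *Anxa2* were 3.61, 0.715 and 4.05 times those of *S100a10* in DiO-only pools and 2.52, 0.749 and 2.99 times in double-labelled pools. The mean log2 ratio was 1.13 ± 1.40 and 0.83 ± 1.09 (SD, n = 3), so the groups overlapped and pool 2 of each was the only library with more *S100a10* than *Anxa2*. For *Anxa2* to *S100a11* the log2 ratio was likewise lowest there, with values of 0.75 and 0.87 in pool 2 of the groups and 3.17 to 5.25 in the other libraries.

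**Figure D3:**
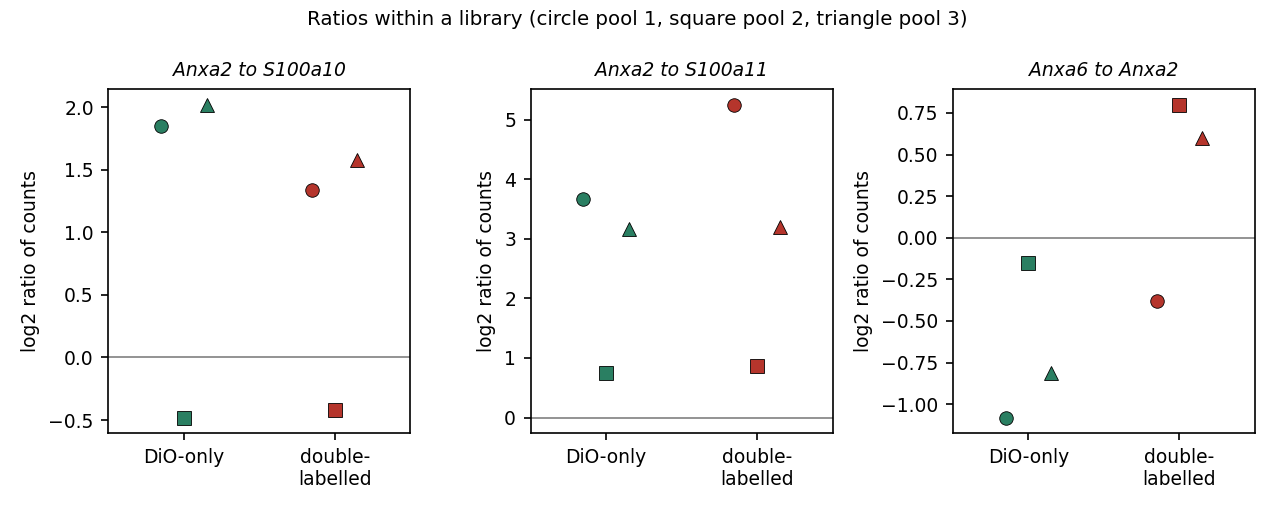
Log2 ratio of counts within each library for *Anxa2* to *S100a10*, *Anxa2* to *S100a11* and *Anxa6* to *Anxa2*, with circles, squares and triangles for pools 1, 2 and 3 of each group. The squares of pool 2 are the lowest for both S100 ratios, at -0.48 and -0.42 and at 0.75 and 0.87.

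The libraries numbered 2 also had higher scaled levels of genes with under 1 kb of exon. For the 651 tested genes with under 1 kb of exon, the median log2 difference from the group mean was 0.36 in DiO-only pool 2 and 0.37 in double-labelled pool 2, against -0.13 and -0.23 in the other DiO-only pools and 0.00 and -0.31 in the other double-labelled pools. For the 7055 genes with 4 kb or more it ran from -0.03 to 0.07. *S100a11*, with 511 bases of exon, falls in the class under 1 kb. *S100a10*, with 1212 bases of exon and a longest transcript of 685 bases, falls in the class of 1 to 2 kb, where pool 2 stood at -0.05 and 0.02. The difference from the group mean was 1.52 and 2.05 for *S100a11* and 1.36 and 1.07 for *S100a10* in these libraries. Pools numbered 2 also had the smallest total count of each group, 3747145 and 2997714. The labels mention 3 batches of libraries without naming their members. The part of length, depth and batch in these values was not tested.

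**Figure D4:**
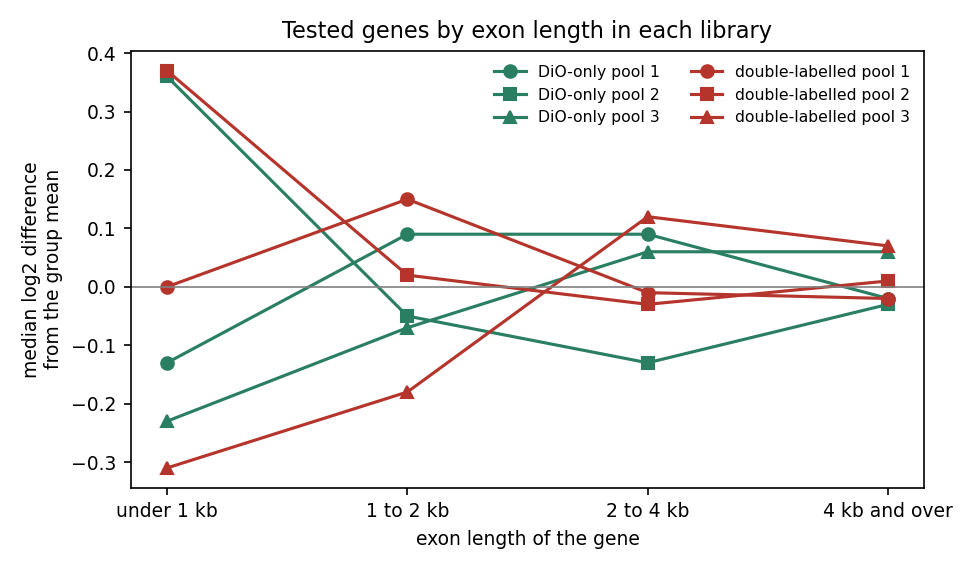
Median log2 difference from the group mean over the tested genes in 4 classes of exon length, for each library. Squares mark the libraries numbered 2, which stand at 0.36 and 0.37 for genes under 1 kb.

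The genes most like *Anxa2* were sought by the SD over the 6 libraries of the log2 ratio to *Anxa2*, among 3359 other tested genes with a mean of at least 50 CPM. They were the transcription factor gene *Stat5b* (SD 0.18), the adaptor gene *Shc2* (0.21), the tubulin gene *Tuba1a* (0.22), which can share reads with its near-identical paralogs, the calmodulin-dependent kinase gene *Camk1* (0.23) and the arginine methyltransferase gene *Prmt7* (0.27). *Stat5b*, for example, stood at 63.5, 69.8 and 84.9 CPM in DiO-only pools and at 33.7, 27.1 and 36.7 CPM in double-labelled pools. Among the members *Anxa5* came nearest (SD 0.54, rank 300), and *S100a10* (1.13, rank 2996) and *S100a11* (1.72, rank 3316) were near the far end of the list. The same search for *S100a10*, added after its values were seen, gave *Dynll1* (SD 0.19), of a dynein light chain, *Txn1* (0.22), of thioredoxin, *Fabp5* (0.25), of a fatty acid binding protein, *Sncg* (0.27), of gamma-synuclein, and *Stmn2* (0.28), of a growth-associated stathmin. *Txn1*, for example, stood at 262, 1258 and 265 CPM in DiO-only pools and at 258, 592 and 171 CPM in double-labelled pools. These genes were picked for likeness to *S100a10*, so their high level in pool 2 follows from the choice. The same holds for the lower double-labelled pools of *Stat5b* beside *Anxa2*. By the union of exons *Dynll1*, *Fabp5* and *Stmn2* have 3890, 3567 and 5602 bases, and their longest annotated transcripts have 2242, 3238 and 3413. *Txn1* and *Sncg* have 1051 and 852 bases by either measure. Which transcripts were sequenced is not known, and the part of length in this likeness was not tested. *Anxa2* itself ranked 1637 in the search for *S100a10*.

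Other genes of the families were few. Of 5 other annexins 1 was tested, *Anxa10* (ENSMUSG00000031635), at 167, 171 and 152 CPM in DiO-only pools and 34.5, 53.1 and 82.1 CPM in double-labelled pools. Its groups did not overlap, as for *Anxa2*, and its log2 fold change was -1.53 ± 0.37 (SE; edgeR adjusted p = 0.476). DESeq2 called it on filtered genes (DESeq2 adjusted p = 0.0291) and on all genes (DESeq2 adjusted p = 0.0483). So did edgeR without the filter on low counts (edgeR adjusted p = 0.0276), where 79 of 28513 genes were called. The median log2 fold change over all genes of that edgeR fit was -0.34. Over 15 other settings the adjusted p of *Anxa10* ran from 0.0276 to 1. *Anxa8* had 8, 4 and 20 counts in DiO-only pools and 0 in each double-labelled pool, too few to be tested. *Anxa11* and the antisense gene that overlaps it were listed at 0 in all libraries. How reads in overlapping genes were counted is not stated in the labels, so this 0 is not read as absence of its RNA. Of 17 other genes with S100 names, *S100pbp* counted among them, 16 were in the table, 10 had 0 counts throughout and 5 were tested, 3 lower and 2 higher (median -0.13 on the log2 scale). None was called by edgeR or DESeq2, and 1, *S100a1*, had an unadjusted p under 0.05, as had 5.81% of all tested genes. *S100b* was the most abundant of these, at 264, 907 and 236 CPM against 348, 594 and 345 CPM, again with pool 2 highest in both groups (log2 fold change -0.13 ± 0.50, SE). *S100a1*, of a calcium sensor, stood at 5.54, 14 and 6.19 CPM against 57.3, 26.3 and 11.9 CPM (1.91 ± 0.65 SE, edgeR adjusted p = 0.692). *S100a16* stood at 9.19, 6.01 and 11.9 CPM against 40.1, 26.0 and 5.23 CPM (1.38 ± 0.70 SE, edgeR adjusted p = 0.881). Both overlapped between groups.

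Of 24 listed binding partners of the members 14 were tested, 8 lower and 6 higher (median -0.06 on the log2 scale). By edgeR and by DESeq2 0 were called, and 1, *Sugt1*, had an unadjusted p under 0.05. *Sugt1*, of a chaperone partner that S100A6 binds, stood at 91.9, 98.2 and 83.9 CPM against 54.2, 54.9 and 48.8 CPM. It was the only one lower without overlap, and *Hltf* and *Asic1* were higher without overlap, with log2 fold changes of 1.04 ± 0.49 and 0.85 ± 0.52 (SE). Over all tested genes 7.07% were lower and 5.86% higher without overlap, and 5.81% had an unadjusted p under 0.05. These 3 are named after their values were seen. The giant protein gene *Ahnak2*, a relative of the scaffold that annexin A2 and S100A10 hold at the membrane, stood at 2472, 3005 and 1500 CPM against 1723, 1798 and 1867 CPM, while *Ahnak* itself was too low to be tested. *Cacybp*, of a protein that binds S100A6, stood at 150, 89.2 and 145 CPM against 118, 78.7 and 84.0 CPM, and *Tsg101*, of a sorting protein, at 140, 73.2 and 135 CPM against 116, 85.6 and 51.7 CPM. *Kcnk3*, of a potassium channel that S100A10 binds, stood at 100, 94.9 and 68.2 CPM against 63.5, 116 and 114 CPM. *Ahnak2*, *Cacybp*, *Tsg101* and *Kcnk3* had overlapping groups.

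In plasma membrane repair annexins cover the wound while other proteins reseal it. Of 22 listed repair genes 17 were tested, 10 lower and 7 higher (median -0.07 on the log2 scale). By edgeR and by DESeq2 0 were called, and 2, *Ehd1* and *Syt7*, had an unadjusted p under 0.05. *Ehd1*, of a membrane-remodelling ATPase, stood at 48.3, 54.8 and 66.2 CPM against 21.0, 30.0 and 30.7 CPM and was lower without overlap, and *Mcoln1*, of a lysosomal calcium channel, was higher without overlap (log2 fold change 0.47 ± 0.32, SE). For comparison, 48.7% of all tested genes had a log2 fold change below 0. Without overlap 7.07% were lower and 5.86% higher, and 5.81% had an unadjusted p under 0.05. *Ehd1*, *Syt7* and *Mcoln1* too are named after their values were seen. The calpain small subunit gene *Capns1* stood at 342, 1207 and 373 CPM against 277, 758 and 270 CPM, with pool 2 highest in each group. *Capn2*, of a calcium-activated protease, stood at 273, 342 and 245 CPM against 281, 298 and 251 CPM. *Chmp2a*, of the membrane-cutting ESCRT machinery, stood at 185, 201 and 165 CPM against 232, 128 and 155 CPM, and *Smpd1*, of acid sphingomyelinase, at 129, 167 and 146 CPM against 84.9, 151 and 162 CPM. The groups of *Capns1*, *Capn2*, *Chmp2a* and *Smpd1* overlapped.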

How the data were processed

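RNA was measured in 6 libraries, 3 per group by the dye combination in the labels. The deposited values are raw read counts per Ensembl gene, made with FastQC, HISAT2 and HTSeq on mm10 per the submitters' processing notes; their versions, the annotation and the strand setting are not stated there. Counts were analysed in R 4.3.3. Genes were filtered with filterByExpr (12954 of 53858 kept, 99.2% of counts), scaled with TMM and compared with edgeR 4.0.16 (robust quasi-likelihood fit, two-sided), p-values being adjusted over all tested genes by the Benjamini-Hochberg method. For edgeR an SE is the absolute log2 fold change divided by the square root of F. For DESeq2 and limma voom it comes from the fit of that tool. Alternatives used DESeq2 1.42.0, limma 3.58.1, other scalings and filters, a replicate block and fewer libraries. Coordinates, exon lengths (union of exons) and overlaps are from GENCODE M21 on GRCm38 (99.8% of identifiers matched), promoters from RefSeq. Members and lists were chosen with earlier results of these data known. Other genes named are the up to 4 most abundant tested genes per list and the 5 nearest to *Anxa2*; *Anxa8*, *Anxa11*, *Ahnak*, list genes whose groups did not overlap and the genes nearest to *S100a10* were added after their values were seen. Figures were drawn with matplotlib 3.10.9.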

Additional observations from a re-analysis of the deposited data

How the results depend on the processing

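For the 7 tested members, 7 alternatives in scaling, filter or tool kept all 7 fold changes below 0, with limma voom bringing *S100a10* to -0.34 and *S100a11* to -0.80. Over 15 alternatives the log2 fold change of *Anxa2* ran from -1.37 to -1.13. The number of genes called, 0 in the edgeR fit, was 79 of 28513 without the filter on low counts. It was 76 of 12918 and 75 of 15139 with DESeq2 on filtered and on all genes, and 23 (0.178%) with the replicate block. Same-numbered libraries had correlations of 0.076, 0.237 and 0.209 of their deviations from the group means over 12954 genes, each the best match of its library, but the labels give only a shared number. With the block *S100a11* was called, at -1.81 ± 0.29 (SE) and an edgeR adjusted p of 0.0392 (0.0392 to 1 over its 15 alternatives), and *Anxa4* turned to 0.03. Without single libraries, *Anxa4* ran from -0.61 to 0.42 and *Anxa7* from -0.16 to 0.11, and 1 to 3 members had groups that did not overlap (1 in the full set), where 19.2% to 26.8% of all genes did not (12.9% in the full set). Without pool 2 of both groups, an alternative chosen after seeing the data, 4 members did not overlap (35.5% of all genes), 6 were lower and *Anxa7* stood at 0.05. In these reversals the cause was not tested. Depth limits *Anxa1*, *Anxa3* and *S100a6*, which had 6, 2 and 12 counts in all, so that a difference between groups was not detectable.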
